A study of Mus musculus and Homo sapiens with 20 samples.

Results

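The regions described here are 1-kb stretches of the mouse genome called marked by H2AK119ub in wild-type (WT) mouse embryonic stem (mES) cells. They were not called marked in Tet2-knockout (KO) mES cells. H2AK119ub is histone H2A with ubiquitin on a lysine of its tail. A bin was called marked in a list when peaks covered at least 50% of it. The members, called lost bins, were selected on measured values: marked in both WT H2AK119ub lists and in neither KO list, on chromosomes 1 to 19 of mm10, without chromosome 6 from 81 Mb and chromosome 13 from 96 Mb. They number 12170 of 2369579 bins, or 12170 of the 182095 bins marked in both WT lists (6.68%). The remaining WT-marked bins were marked in 1 KO list (partial, 27796) or in both (retained, 142129). The opposite pattern, marked in both KO lists and in neither WT list, was met by 10442 bins (gained). Lost thus means less than 50% covered in each KO list, and both KO lists were at 0 in 4690 lost bins (38.5%).

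The study asked whether loss of the dioxygenase TET2 lowers H2AK119ub, with CUT&Tag, in which an antibody tethers a transposase to marked chromatin, so that sequenced fragments mark the sites. WT and Tet2-/- mES cells were grown in serum medium with LIF, 3 µM CHIR99021 and 1 µM PD0325901. Haematopoietic stem and progenitor cells (HSPCs), taken as lineage-negative c-Kit+ bone marrow cells, came from WT and Tet2-/- mice of both sexes, 6 to 8 weeks old and on a C57BL/6 background. Each of the 8 groups (mES cells or HSPCs, WT or KO, H2AK119ub or H3K27me3) has 2 lists of peaks. The mES genotypes are 1 WT and 1 KO line as far as the sources used here tell, so genotype and line cannot be told apart. The HSPC gate holds many progenitor types, so its lists are averages over them. The methods call the CUT&Tag replicates biological, without saying whether they were separate cultures or animals, so the p-values below measure the spread between these lists.

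H2AK119ub is laid down by Polycomb repressive complex 1 (PRC1), whose RING1A or RNF2 subunit is the E3 ligase, and removed by the PR-DUB complex of BAP1 with ASXL proteins. H3K27me3, laid down by PRC2, often lies over the same silent developmental genes, since each complex can be recruited to the product of the other. In mES cells the marks are best known from CpG islands at the starts of developmental regulators, and H2AK119ub is also spread thinly over the rest of the genome.

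Each H2AK119ub list of mES cells held 154919 to 167378 peaks, which covered 259 and 247 Mb in WT and 251 and 234 Mb in KO. Over the other 12 lists the number of peaks was 85121 to 136735. The lists carry no read counts or scores, so sequencing depth is unknown and no interval for counting error can be given. Among the mES markers, the Pou5f1, Sox2 and Esrrb promoters (1 kb either side of the start) were at least 70% covered by H2AK119ub in all 4 mES lists, and the Nanog and Zfp42 promoters were at 25.04% to 34.7%. Of the HSPC markers in the same lists, the Spi1 promoter was covered to at least 75.3%, Kit to at least 66.2%, Mpo to at least 60.6%, Cd34 to at least 54.3% and Runx1 to at least 24.8%. Ptprc was at 0 in all 16 lists. Peaks of these marks show modified chromatin and not expression, so neither the identity of the cells nor the deletion of Tet2 could be checked from the lists.

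Sequences in lost bins, or partly in the bin before one in the case of Stra8, are given first. The selection did not use base composition. Of the named genes whose start lay in a lost bin, 4 from the lists of blood, germline and heterochromatin genes are shown, and the 250 bases upstream of each start (GENCODE vM21 start, GRCm38.p6 sequence, read on the strand of the gene) are printed with CpG dinucleotides in capitals. Kit encodes the stem cell factor receptor, Cd34 a sialomucin of progenitor cells, Stra8 a factor for entry into meiosis and Cbx3 the heterochromatin protein HP1 gamma.
Kit, chr5:75574666-75574915, plus strand: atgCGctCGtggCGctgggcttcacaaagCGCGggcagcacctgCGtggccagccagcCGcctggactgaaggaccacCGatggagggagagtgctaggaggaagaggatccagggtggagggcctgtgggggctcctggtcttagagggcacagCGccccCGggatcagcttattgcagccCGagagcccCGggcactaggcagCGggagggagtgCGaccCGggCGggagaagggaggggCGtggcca
Cd34, chr1:194938569-194938818, plus strand: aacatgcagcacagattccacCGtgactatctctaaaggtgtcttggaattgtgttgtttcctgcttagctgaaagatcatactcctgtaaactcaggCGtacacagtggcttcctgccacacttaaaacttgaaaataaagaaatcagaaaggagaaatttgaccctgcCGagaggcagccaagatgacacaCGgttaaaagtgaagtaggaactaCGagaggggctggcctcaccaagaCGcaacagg
Stra8, chr6:34919913-34920162, plus strand: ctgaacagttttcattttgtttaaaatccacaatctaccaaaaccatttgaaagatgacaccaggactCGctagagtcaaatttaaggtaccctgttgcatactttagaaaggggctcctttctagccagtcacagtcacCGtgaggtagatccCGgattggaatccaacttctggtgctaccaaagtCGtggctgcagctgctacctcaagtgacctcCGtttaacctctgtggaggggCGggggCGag
Cbx3, chr6:51470110-51470359, plus strand: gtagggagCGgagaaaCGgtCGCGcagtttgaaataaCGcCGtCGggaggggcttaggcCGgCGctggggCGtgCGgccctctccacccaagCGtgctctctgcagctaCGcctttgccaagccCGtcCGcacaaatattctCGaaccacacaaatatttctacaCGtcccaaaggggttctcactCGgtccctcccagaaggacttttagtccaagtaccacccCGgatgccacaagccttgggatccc
These windows held 17, 6, 7 and 19 CpGs (the letters CG, the same on both strands). Of the 20026 protein-coding gene starts in the analysed part of the genome, 92.6% had at least 1 CpG in the same window, with a median of 9. Over the 235 starts in lost bins the share was 95.3% and the median 10. The whole start bin held a median of 36 CpGs and 52.4% G and C at lost starts, 47 and 54.1% at the 277 gained starts, and 51 and 57.7% at the 7994 retained starts.

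Most lost bins did not lie at a gene start, and 93.9% of them had no adjacent lost bin. The sequences below come from the 5 longest uninterrupted runs of lost bins, which are extremes and not the usual lost bin. For each, 200 bases near the centre of the run and outside exons are shown on the plus strand of GRCm38.p6, again with CpG in capitals.
9-kb run in Hjurp, chr1:88271401-88271600: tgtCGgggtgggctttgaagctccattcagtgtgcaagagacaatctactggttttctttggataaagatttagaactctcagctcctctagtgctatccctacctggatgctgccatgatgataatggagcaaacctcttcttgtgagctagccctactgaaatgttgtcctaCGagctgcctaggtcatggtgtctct
5-kb run in Trpm8, chr1:88307401-88307600: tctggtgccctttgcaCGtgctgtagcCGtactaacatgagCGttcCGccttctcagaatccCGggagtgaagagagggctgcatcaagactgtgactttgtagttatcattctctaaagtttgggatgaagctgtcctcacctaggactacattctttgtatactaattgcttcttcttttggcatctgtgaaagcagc
4-kb run in Gtf2ird1, chr5:134437901-134438100: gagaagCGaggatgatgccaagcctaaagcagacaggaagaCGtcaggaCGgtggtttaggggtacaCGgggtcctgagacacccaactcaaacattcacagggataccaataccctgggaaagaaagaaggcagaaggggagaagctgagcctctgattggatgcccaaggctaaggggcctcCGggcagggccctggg
4-kb run beyond the end of Dmgdh, chr13:93755901-93756100: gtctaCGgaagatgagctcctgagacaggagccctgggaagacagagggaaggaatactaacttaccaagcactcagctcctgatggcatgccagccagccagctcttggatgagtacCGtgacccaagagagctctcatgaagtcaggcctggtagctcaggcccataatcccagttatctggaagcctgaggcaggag
4-kb run between genes, chr19:53490901-53491100: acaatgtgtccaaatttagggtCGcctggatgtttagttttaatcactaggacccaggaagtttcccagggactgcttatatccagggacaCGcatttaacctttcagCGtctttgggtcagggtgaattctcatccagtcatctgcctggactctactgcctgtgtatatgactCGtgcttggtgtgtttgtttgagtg
These windows held 2 to 5 CpGs each. Over whole bins, lost bins had a median of 11 CpGs (quartiles 8 and 15) and 48.0% G and C, partial bins 12 and 49.0%, retained bins 14 and 51.7%, and gained bins 12 and 48.2%. All 2303376 bins with known sequence had medians of 7 CpGs and 41.7%. The soft-masked repeat share averaged 21.0% in lost, 19.6% in gained, 14.1% in retained and 33.6% in all bins. Lost bins thus sat close to gained bins, and between retained bins and the genome, in these measures.

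Most lost bins had no adjacent lost bin, and WT peaks covered less of them than of retained bins. Of the 11782 runs of adjacent lost bins, 11426 were 1 bin long (96.98%). In the lists that selected them, given only as a description, lost bins had median coverage of 67.3% and 65.3% in WT against 2.7% and 0% in KO. Both WT lists covered the whole bin in 2109 members (17.3%), against 57.5% of retained bins. Both KO lists were at 0 in 4690 members (38.5%). Near the threshold, 5480 members had the lower WT coverage between 50% and 55%, and 2304 had the higher KO coverage between 45% and 50%. Just outside it, 4201 bins had the lower WT coverage between 45% and 50% with both KO lists under 50%, and 8750 WT-marked bins had the higher KO coverage between 50% and 55%. A median WT peak over a lost bin was 1341 bp and 1238 bp wide, against 4244 bp and 4027 bp over a retained bin. A KO peak lay in the bin or within 1 kb of it for all but 2280 members (18.7%), and the mirror count for gained bins was 1959 without a nearby WT peak (18.8%). In the neighbouring bin on the left, mean coverage was 39.1% and 36.9% in WT against 31.6% and 29.4% in KO, a smaller gap than in the selected bin itself, which the selection fixes.

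**Figure D1:**
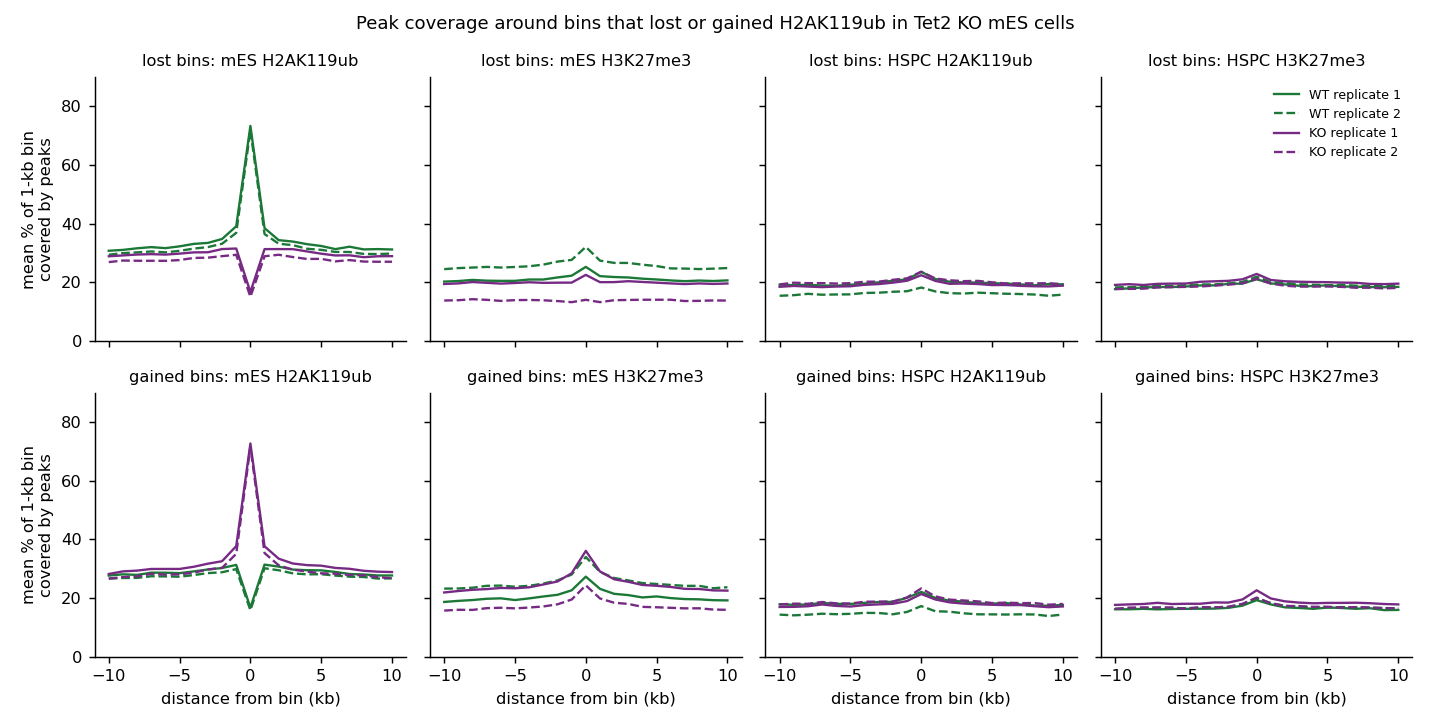
Mean percent of each 1-kb bin covered by peaks (vertical axis) against distance from a lost bin (upper row) or gained bin (lower row) in kb, one line per list, WT in green, KO in purple, replicate 1 solid and replicate 2 dashed. The mES H2AK119ub panels show the values that selected the bins; at lost bins both KO H3K27me3 lines of mES cells lie below both WT lines (22.6% and 14.1% against 25.3% and 32.1% at distance 0), whereas the HSPC lines lie within 18.3% to 23.7% there.

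Lost bins lay farther from gene starts than retained bins. By a fixed order of priority, 613 lost bins (5.04%) lay within 1 kb of a protein-coding gene start, 11.7% in an exon, 32.8% in an intron, 8.46% in another gene and 42.0% between genes. Retained bins had 11.9% near a start and 29.1% between genes, and gained bins 5.73% and 37.0%. All bins had 2.37% and 51.1%. The median distance from the centre of a bin to the nearest protein-coding start was 33.0 kb for lost, 34.8 kb for gained, 30.6 kb for partial and 18.5 kb for retained bins. Among lost bins with no KO peak within 1 kb, the share near a start was 2.72%. These shares describe bins chosen by the readout and carry no test.

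**Figure D2:**
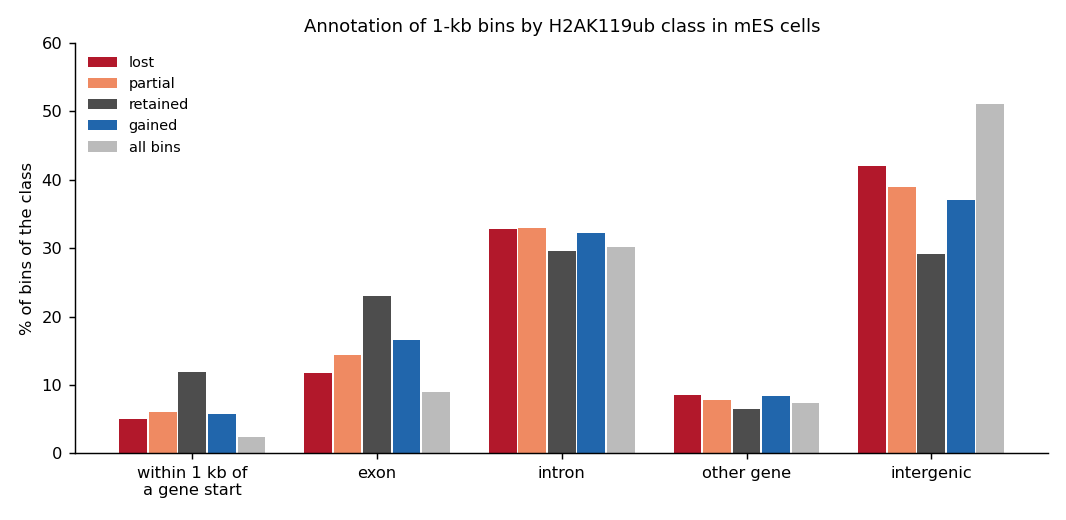
Percent of bins (vertical axis, from 0) of each H2AK119ub class of mES cells in each annotation (horizontal axis), each bin counted once. Lost bins (red) have 5.04% near a gene start against 11.9% of retained bins (dark grey), and 42.0% between genes against 29.1%.

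Across chromosomes, the share of WT-marked bins that were lost ran from 4.98% on chromosome 11 to 10.5% on chromosome 13. Of 991 windows of 1 Mb with at least 40 WT-marked bins, the median share was 7.03% (5th and 95th percentiles 2.11% and 18.03%), and 22 windows were over 20%. The 3 highest lay on chromosome 13, within 5 Mb of the excluded end: 42 of 69 WT-marked bins from 91 to 92 Mb (60.9%), 26 of 72 from 93 to 94 Mb (36.1%) and 38 of 126 from 94 to 95 Mb (30.2%). From 89 to 96 Mb of this chromosome 122 of 434 WT-marked bins were lost (28.1%) and 33 bins were gained. The stretch held 651 and 627 marked bins in the WT H2AK119ub lists against 487 and 464 in the KO lists, and 531 and 697 against 458 and 316 for H3K27me3 in mES cells. In HSPCs it held 300 and 210 in WT against 312 and 337 in KO for H2AK119ub, and 518 and 523 against 517 and 484 for H3K27me3. Fewer bins of this stretch were thus marked in KO mES cells for both marks, and in HSPCs this was not seen for H2AK119ub. Outside it 6.63% of WT-marked bins were lost, so it held 1.00% of all lost bins. The next window was chr1:171000001-172000000 (25 of 89), with 18 bins gained.

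**Figure D3:**
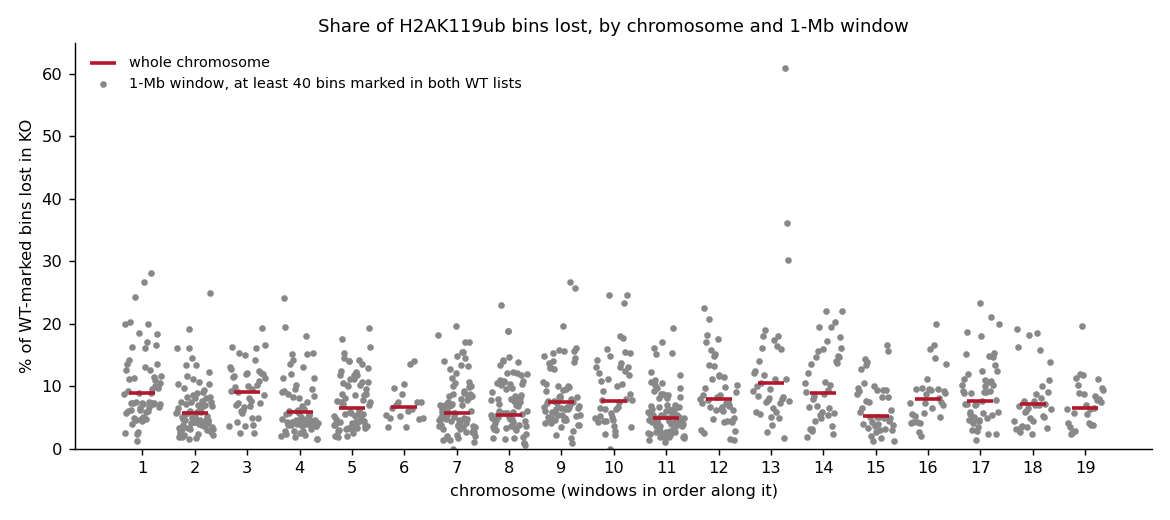
Percent of WT-marked bins lost in KO (vertical axis) in 1-Mb windows (grey points, in order along each chromosome) and whole chromosomes (red bars). The windows of chromosome 13 at 60.9%, 36.1% and 30.2% lie between 91 and 95 Mb, below its excluded end at 96 Mb, and stand above the other windows, whose highest value is 28.1%.

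Of 20026 protein-coding genes, 3674 had at least 1 lost bin within the gene or 1 kb of it (18.3%), 1023 had 2 to 4, and 188 had 5 or more (0.939%). The 188 were long genes, with a median span of 253 kb against 17.5 kb for all genes, and a median of 13.6% of their WT-marked bins was lost. In 62 of them the share was under 10% and in 39 it was at least 25%. The highest numbers were in Fgfr2, a fibroblast growth factor receptor (51 of 538 WT-marked bins lost, 9.48%), and in Gm20388 (38 of 2812, 1.35%). Both annotated spans, 2961 kb and 4435 kb, take in other protein-coding genes (30 and 73), so these bins cannot be assigned to 1 gene. Cdh13, an atypical cadherin without a transmembrane domain, lost 35 of 327 bins and gained 14. Ttll11, of the tubulin polyglutamylase family, lost 21 of 93 and gained 1. Next came Tshz2, a zinc finger protein (18 of 154), Spock1, a matrix proteoglycan (17 of 104), Wwox, an oxidoreductase gene at a fragile site (17 of 240), and Prkce, protein kinase C epsilon (16 of 82). Lhfpl2, a tetraspan membrane protein (15 of 34), Grip1, a scaffold of glutamate receptors (15 of 50), Ctif, a translation initiation factor (15 of 112), and Slit3, a ligand of ROBO receptors (15 of 164), followed. Gained bins numbered 45 in Gm20388 and 16 in Slit3, more than were lost there, 32 in Fgfr2, 15 in Wwox and 10 in Prkce. Spock1 gained 9, Tshz2 and Ctif 6 each, and Lhfpl2 and Grip1 1 each. The share was thus 44.1% in Lhfpl2 and 30.0% in Grip1, but 7.08% in Wwox, close to the 6.68% of all WT-marked bins.

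By share of WT-marked bins lost, among 6448 genes with at least 5 such bins, the first was Plekhb2, a membrane trafficking protein (5 of 6). Rftn2, a lipid raft protein, lost 4 of 5, Ssbp2, a cofactor of LDB1 complexes, 14 of 18, and Cd80, the T cell costimulatory ligand, 6 of 8. Acot12, an acetyl-CoA thioesterase, and Dmgdh, dimethylglycine dehydrogenase, each lost 8 of 11. Gtf2ird1, of the TFII-I family, lost 6 of 9, Cadm1, an adhesion molecule, 5 of 8, Hjurp, the chaperone of the centromeric histone CENP-A, 11 of 18, and Ccdc146 3 of 5. None of these 10 genes had more than 1 gained bin. Ssbp2, Acot12, Dmgdh and Lhfpl2 lie in the chromosome 13 stretch described above. In all it held 8 of the 188 genes with 5 or more lost bins, and without it 180 remained.

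**Figure D4:**
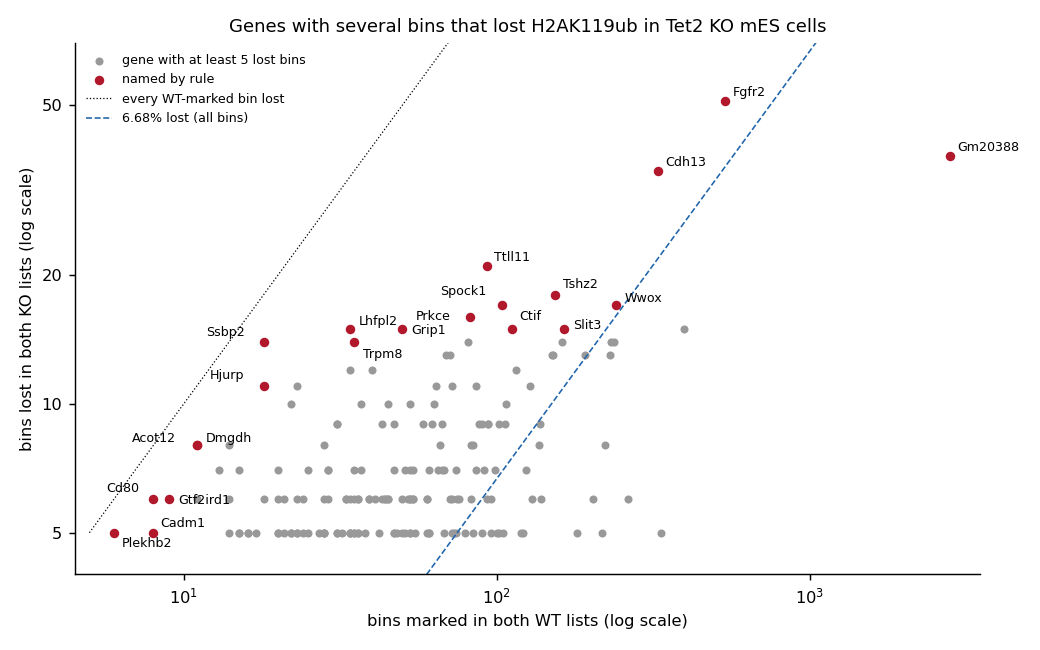
Lost bins (vertical axis, log scale) against bins marked in both WT lists (horizontal axis, log scale) for the 188 genes with at least 5 lost bins; red points are named by rule. The dotted line marks loss of every bin and the dashed line 6.68%; Ssbp2 with 14 of 18 lies near the former, Wwox with 17 of 240 near the latter and Gm20388 with 38 of 2812 far to its right.

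The longest run of lost bins covered 9 kb of Hjurp (chr1:88267001-88276000), of which 2598 bp were exonic. Peaks covered 89.5% and 91.3% of the run in the WT H2AK119ub lists and 12.7% and 11.9% in the KO lists. H3K27me3 in mES cells covered 5.57% and 23.0% in WT against 0% in both KO lists. In HSPCs, H2AK119ub covered 91.1% and 88.3% in WT against 87.8% and 89.1% in KO. The run that was lost in KO mES cells was therefore covered to about the same degree in every HSPC list.

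Trpm8, the cold-sensing channel, starts 28 bp from the start of Hjurp on the other strand, and held the next run, of 5 kb (chr1:88305001-88310000). H2AK119ub covered 100% and 74.3% of it in WT against 3.84% and 0% in KO mES cells. H3K27me3 covered 100% and 83.4% in WT against 29.5% and 28.9% in KO mES cells, so the groups did not overlap for this mark either. HSPC H2AK119ub covered 49.8% and 28.2% in WT against 58.7% and 45.1% in KO, which overlapped. Across the 2 genes together 24 bins were lost. At their shared promoter, H3K27me3 covered 93.8% and 100% in WT against 31.5% and 25.04% in KO mES cells (1 kb either side of the Trpm8 start).

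The 4-kb run in an intron of Gtf2ird1 (chr5:134436001-134440000) had 98.6% and 100% H2AK119ub coverage in WT against 31.6% and 25.6% in KO, and no H3K27me3 in any mES list. The run on chromosome 13 (chr13:93754001-93758000), 1167 bp from Dmgdh, went from 86.0% and 83.9% to 2.88% and 9.90%. Its H3K27me3 went from 37.9% and 70.05% to 0% in both. This run lies in the chromosome 13 stretch where fewer bins were marked in KO mES cells for both marks. The run on chromosome 19 (chr19:53489001-53493000), 36108 bp from Dusp5, went from 93.7% and 86.2% to 3.33% and 8.40%, and its H3K27me3 from 54.5% and 62.4% to 0% in both.

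Gene starts were seldom lost: 235 of the 8971 starts in a WT-marked bin (2.62%), and 277 starts were gained. At some of the named starts the lists lay close to the threshold. The start bin of Kit was covered to 55.4% and 54.5% in WT against 46.6% and 41.5% in KO, and that of Cbx3 to 51.8% and 51.1% against 45.2% and 48.3%. That of Cd34 went from 63.2% and 57.4% to 26.7% and 46.6%. Larger steps in the start bin were seen at Cadm1 (100% and 54.7% against 0% and 36.4%) and at Kdm2b (55.4% and 50.1% against 0% in both). The start bin of Stra8 had 50.7% and 100% against 45.8% and 36.9%. Over 1 kb either side of the start, the groups overlapped at Cadm1 (67.5% and 37.8% against 0% and 48.0%). They also overlapped at Kdm2b (68.8% and 25.04% against 35.4% and 16.8%), but not at Kit, Cd34, Cbx3 or Stra8. In HSPCs, 114 to 155 of the 235 starts carried H2AK119ub (48.5% to 65.96%), and the shares over all starts were 48.9% to 59.5%. H3K27me3 marked 56 and 75 of them in WT (23.8% and 31.9%) against 48 and 36 in KO mES cells (20.4% and 15.3%). Over all starts the shares were 36.5% and 39.4% against 32.4% and 28.04%, and over retained starts 69.2% and 72.4% against 60.1% and 54.6%, so the groups did not overlap there either. The start bin of Cd34 was covered to at least 92.5% by H3K27me3 in all 4 mES lists.

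The gene lists were read against the 18.3% of all genes that had a lost bin and the 6.68% of WT-marked bins that were lost. Of 34 developmental regulators, 4 had a lost bin (11.8%), with 6 of 454 WT-marked bins lost (1.32%) and 14 bins gained. Of their 31 starts in WT-marked bins, 31 were retained. Pax3 and Tbx5, transcription factors of neural crest and heart, lost 2 bins each (of 16 and 25) and kept full promoter coverage of both marks in all mES lists. Of 10 PRC2 subunits none had a lost bin (0 of 30 bins). Of 17 PRC1 subunits 4 did (6 of 157 bins, 4 gained), among them Kdm2b, which brings a variant PRC1 to CpG islands (3 of 19), and Rnf2 (1 of 1). The Rnf2 bin was covered to 50.1% in both WT lists, just over the threshold, and to 0% in both KO lists. Of 9 PR-DUB genes only Foxk1, a forkhead factor that binds BAP1, had lost bins (3 of 21). The other lists gained 0 to 7 bins each.

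Of 18 pluripotency genes, 4 had lost bins (7 of 101 bins, 6.93%), with 4 of 60 in Esrrb and 1 of 1 in Tfcp2l1. Of 24 germline genes 6 did (7 of 122), with Stra8 at 2 of 10 and Tdrd12 at 1 of 2. Of 13 widely expressed genes 4 did (5 of 35), with 2 of 8 in Eef2 and 1 of 2 in Rplp0. Of 12 RNA m5C and TET genes, Nsun2, an RNA m5C methyltransferase, was the only one (1 of 9, with 2 gained). That bin lay close to the threshold, at 53.6% and 51.1% in WT against 45.5% and 43.3% in KO. The span of Nsun2 also overlaps 2 other genes. Of 14 genes of retrotransposon silencing 3 had lost bins (8 of 88), with 5 of 61 in the DNA methyltransferase Dnmt3a, 2 of 11 in its partner Dnmt3l and 1 of 1 in Cbx3. Of 14 genes of cytokine feedback and NF-kB, Nfkb1 was the only one (3 of 13). Of 6 HSPC markers Kit (2 of 4), Cd34 (1 of 3) and Runx1 (2 of 85) had lost bins. Over these 6 genes 5 of 123 WT-marked bins were lost (4.07%) and 5 bins were gained. The list shares ranged from 0% to 14.3% of WT-marked bins, and no test over bins was made.

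H3K27me3 in mES cells, measured in lists that the selection did not use, was lower at lost bins in KO. It marked 26.5% and 33.9% of lost bins in the WT lists and 23.6% and 14.5% in the KO lists. Both KO lists lay below both WT lists, and the difference of means was -11.2 percentage points (30.2% ± 5.25 against 19.1% ± 6.47, SD, n = 2 each, exact permutation test, two-sided, p = 0.333, the smallest that 6 assignments allow). Over all bins H3K27me3 marked 7.44% and 9.15% in WT against 8.57% and 5.98% in KO, and there the groups overlapped. KO replicate 2 was also the shortest of these lists, so lost bins were set against gained and retained bins of the same list. Gained bins were marked in 28.8% and 36.4% in WT against 38.9% and 25.8% in KO. Lost minus gained was therefore -2.33 and -2.46 points in WT and -15.3 and -11.3 in KO, a difference of -10.9 points (exact permutation p = 0.333). Retained bins were marked in 65.01% and 70.3% in WT against 63.5% and 52.0% in KO. The log2 ratio of lost to retained was -1.29 and -1.05 in WT and -1.43 and -1.84 in KO, a difference of -0.46 (exact permutation p = 0.333). Both KO lists lay below both WT lists at retained bins too. The KO lists lay outside the WT range in all 3 measures, and with 2 lists a group none can reach 0.05. Adjusted over the 9 tests made, each p was 0.429.

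By bin, 7122 lost bins carried no H3K27me3 in any of the 4 mES lists (58.5%) and 1181 carried it in all 4 (9.70%). The corresponding shares were 24.0% and 47.2% of retained bins. Of the 2768 lost bins with H3K27me3 in both WT lists, 747 had it in neither KO list (26.99%), against 12.8% of all bins with the mark in both WT lists. The share was 18.4% of partial, 9.79% of gained and 8.03% of retained bins. In the other direction, 72 of 7582 lost bins without H3K27me3 in WT had it in both KO lists (0.950%). The share was 0.394% of all such bins, 4.92% of gained, 1.57% of partial and 2.64% of retained bins. These bins come from the same lists, so the shares are a description.

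Single genes differed in their H3K27me3 state. Of the 14 lost bins of Trpm8, 11 and 10 carried H3K27me3 in WT against 4 and 4 in KO. Of the 21 of Ttll11, 10 and 13 did in WT against 6 and 0 in KO. Of the 15 of Lhfpl2, 5 and 8 did in WT against 0 in both KO lists, and of the 8 of Dmgdh, 6 and 3 did in WT against 0 in both KO lists. Lhfpl2 and Dmgdh lie in the chromosome 13 stretch where fewer bins were marked in KO mES cells for both marks. Fgfr2 had 20 and 24 of 51 in WT against 16 and 8 in KO. In Slit3 the values overlapped, at 8 and 9 of 15 in WT against 10 and 4 in KO. Prkce and Ctif had at most 1 lost bin with H3K27me3 in any mES list, and Gtf2ird1, Foxk1, Kdm2b and Nfkb1 had none.

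**Figure D5:**
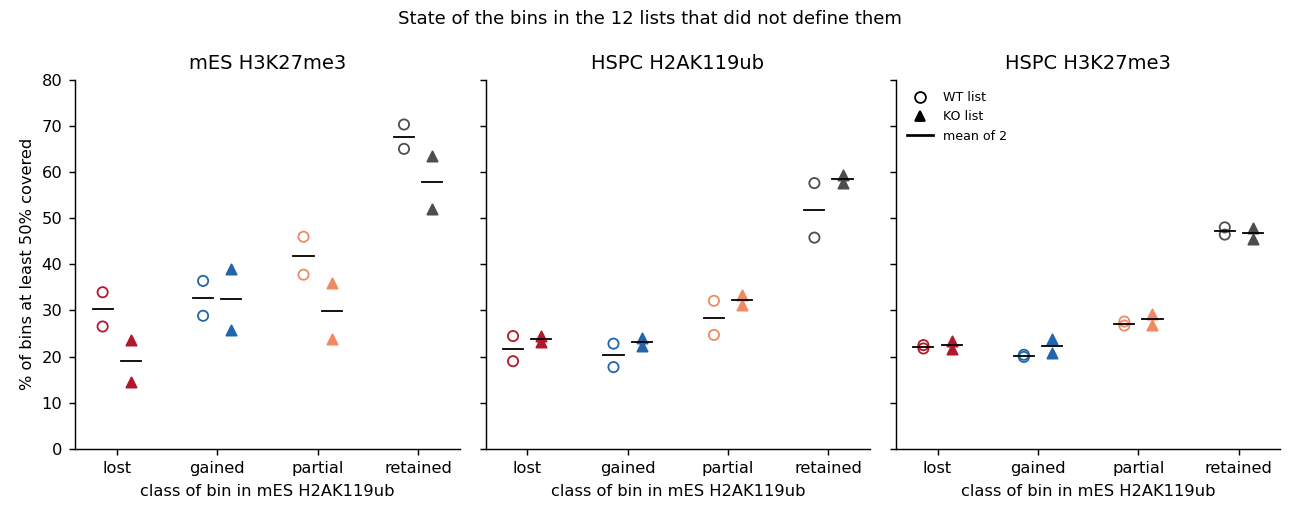
Percent of bins at least 50% covered (vertical axis) in each WT list (open circles) and KO list (triangles), by class of bin, for mES H3K27me3, HSPC H2AK119ub and HSPC H3K27me3, with the mean of 2 as a black bar. At lost bins the mES H3K27me3 lists sit at 26.5% and 33.9% in WT against 23.6% and 14.5% in KO; the HSPC values of lost bins span 18.99% to 24.4%, near those of gained bins and below those of retained bins.

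In HSPCs, H2AK119ub marked 24.4% and 18.99% of lost bins in WT against 23.1% and 24.4% in KO. The groups overlapped, with a difference of 2.03 points (21.7% ± 3.85 against 23.7% ± 0.953, SD, n = 2 each, exact permutation p = 1). Without WT replicate 2, the shortest list of this mark in HSPCs, the difference was -0.698 points. Over all bins H2AK119ub marked 6.94% and 5.64% in WT against 6.74% and 7.07% in KO. Lost minus gained bins was 1.64 and 1.28 points in WT against 0.885 and 0.394 in KO, a difference of -0.824 (exact permutation p = 0.333), whose direction turned with 2-kb bins (0.993) and with a 25% threshold (0.0664). The log2 ratio of lost to retained bins was -1.24 and -1.27 in WT and -1.32 and -1.28 in KO, a difference of -0.05 (exact permutation p = 0.333). Bin by bin, 206 of the 1433 lost bins with H2AK119ub in both WT HSPC lists had it in neither KO list (14.4%), against 8.64% of all such bins, 11.7% of gained bins and 3.52% of retained bins. Conversely, 307 of 8318 had it in both KO lists and in neither WT list (3.69%). The share was 0.622% of all such bins, 3.53% of gained, 4.80% of partial and 10.7% of retained bins.

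H3K27me3 in HSPCs marked 21.7% and 22.5% of lost bins in WT against 23.4% and 21.6% in KO (22.1% ± 0.517 against 22.5% ± 1.24, SD, n = 2 each, difference 0.399 points, exact permutation p = 1). The groups overlapped, and the direction turned with a 25% threshold (-0.129), with lists of equal length (-0.357) and without KO replicate 1 (-0.481). Over all bins H3K27me3 marked 6.57% and 6.68% in WT against 7.09% and 6.55% in KO. Lost minus gained was 1.83 and 2.09 points in WT and -0.346 and 0.769 in KO, a difference of -1.75 (exact permutation p = 0.333). The log2 ratio of lost to retained was -1.09 in both WT lists and -1.03 and -1.07 in KO, a difference of 0.04 (exact permutation p = 0.333). Of 2023 lost bins with the mark in both WT HSPC lists, 146 had it in neither KO list (7.22%), against 6.32% of all such bins, 4.80% of gained bins and 4.29% of retained bins. Of 8812 with the mark in neither WT list, 210 had it in both KO lists (2.38%). The share was 0.499% of all such bins, 2.82% of gained, 3.04% of partial and 3.96% of retained bins.

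Taken over all 12 of these lists, 2846 lost bins (23.4%) carried neither mark in any, against 20.6% of gained and 3.26% of retained bins. H2AK119ub was present in all 4 HSPC lists at 828 lost bins (6.80%) and in none at 6814 (56.0%). The shares were close to these in gained bins (7.05% and 57.6%), and 32.4% and 22.8% in retained bins. The HSPC state varied with annotation. Near gene starts 42.7% to 55.8% of lost bins carried H2AK119ub in HSPCs, and between genes 15.4% to 20.7% did. Gained bins varied likewise, with 47.5% to 58.9% near gene starts and 11.4% to 17.1% between genes. Among named genes, 9 to 10 of the 11 lost bins of Hjurp carried it in every HSPC list, and of the 35 of Cdh13 none did. Esrrb, marked by H3K27me3 at all 4 of its lost bins in every HSPC list, had H2AK119ub at none of them there. Grip1, Spock1 and Slit3 had at most 1 lost bin with H2AK119ub in any HSPC list.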

How the data were processed

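The deposited files are lists of CUT&Tag peaks on mm10, 16 for mouse, each row a chromosome, start and end, with no score or count. Trimmomatic 0.39, Bowtie2 2.4.1 and HOMER 4.9 are named in the processing notes of the submitters, and the methods give duplicate removal with Picard, a Drosophila spike-in and broad peak calling with MACS2; the lists carry no spike-in scaled signal. The authors called peaks in each library, and 33.5% to 41.4% of the peaks are exactly 501 bp wide. Human K562 lists were not used here.

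Overlapping peaks of a list were merged and the genome was cut into bins of 1000 bp, each marked in a list when at least 50% covered. Annotation came from GENCODE vM21 and sequence from GRCm38.p6, the assembly of mm10. A bin belonged to every protein-coding gene within 1 kb, and annotation was assigned in the order gene start, exon, intron, other gene, intergenic. Groups of 2 lists were compared with two-sided exact permutation tests over 6 assignments (scipy 1.17.1, Python 3.11.15), with Benjamini-Hochberg adjustment over 9 tests. Named genes were the 12 with most lost bins, the 10 with the highest share among genes with at least 5 WT-marked bins, those at the 5 longest runs, and of each gene list those with a start in a lost bin and the 2 with most lost bins. Members, lists and rules were chosen with earlier results of these data known. The code for the bin calls and the test was run on simulated data, where 381 of 381 lost bins among 20000 bins were recovered. Simulated peaks covered at least 50% of every marked bin and less of every other bin, so full recovery was fixed by the design. It checks the code and not the calls near the threshold. Alternatives covered bin size, threshold, narrow peaks, joining, excluded ends, list length, residual peaks and each library left out. Same-numbered lists did not deviate together from their group means (correlations -0.0338 to 0.000836 over bins).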

Additional observations from a re-analysis of the deposited data

Results flagged for a closer look

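The log2 ratio of lost to retained bins for H3K27me3 moved in opposite directions in the 2 cell types. In mES cells both KO lists lay below both WT lists (difference -0.46), and in HSPCs both KO lists lay above both WT lists (difference 0.0409, with WT lists at -1.09 and KO lists at -1.03 and -1.07). The HSPC groups overlapped with a 25% threshold (0.0145), with lists of equal length (0.0245) and with only lost bins at 0 covered bases in KO (0.0159); over the 11 alternatives the HSPC value ran from 0.0145 to 0.101. The difference between the cell types was not tested.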

How the results depend on the processing

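The lists hold no depth, so whether a bin without a peak lacked the mark or only reads is not known from them. The number of lost and gained bins was 24199 and 20868 with 500-bp bins, 4816 and 3964 with 2-kb bins, 4690 and 3887 where bins had to have 0 covered bases in the lists of the other genotype, and, added after seeing the data, 2280 and 1959 where no peak of the other genotype could lie within 1 kb. Genes with 5 or more lost bins then numbered 601, 37, 37 and 9. Of these, 183, 35, 37 and 9 were among the 188. Other settings gave 128 genes, 87 of them among the 188 (75% threshold), 255 with 141 (25% threshold), 152 with 103 (peaks of at least 1 kb) and 223 with 154 (peaks joined). Lost bins outnumbered gained bins under each of these. Leaving out 1 mES H2AK119ub list gave 23231 to 39564 lost and 22239 to 34976 gained bins. Gained outnumbered lost bins without either KO list: 29972 against 28905 without KO replicate 1, and 34976 against 23231 without KO replicate 2. Lost outnumbered gained bins without either WT list: 34301 against 24780 without WT replicate 1, and 39564 against 22239 without WT replicate 2. The genotype left with 1 list needed only that list to be marked, so lost and gained were not called with equal strictness here. With the excluded ends kept in, 14952 bins were lost and 10739 gained, and with lists of equal length 11470 and 10703.

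The 3 values for H3K27me3 in mES cells kept their direction under all 11 alternatives (-13.2 to -10.8 points, -18.3 to -10.7 relative to gained, and -0.66 to -0.45 on the log2 scale relative to retained bins) and in every fit without 1 list (-15.7 to -6.58, -12.9 to -8.93 and -0.67 to -0.25). In HSPCs, H2AK119ub relative to gained bins turned with a 25% threshold (0.0664) and with 2-kb bins (0.993), and H3K27me3 turned with a 25% threshold (-0.129) and with lists of equal length (-0.357); the cause was not tested. Without 1 list, H2AK119ub ran from -0.698 to 4.75 points and H3K27me3 from -0.481 to 1.28. With the replicate block, labels were exchanged only within a replicate number, the difference for mES H3K27me3 stayed -11.2 points and the exact p became 0.5, the smallest that 4 arrangements allow. The block changed no other call. The replicates share only a number.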

Other observations

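Lost bins with no KO peak in the bin or within 1 kb of it were collected in 9 genes with 5 or more of them, chosen after their values were seen. Ssbp2 held 13, all in the chromosome 13 stretch below the excluded end, as were 5 in Dmgdh and 5 in Rasgrf2, a guanine nucleotide exchange factor for Ras. Outside that stretch Grip1 held 7, and Trpm8, Jazf1, a zinc finger gene, Mtus2, a microtubule-associated protein, Nckap5 and Ankfn1 held 5 each. Over all 2280 such bins, H3K27me3 marked 22.4% and 28.9% in the WT and 18.3% and 10.3% in the KO lists of mES cells; the groups did not overlap, as was so for retained bins. H2AK119ub in HSPCs marked 19.9% and 14.3% in WT against 17.6% and 18.6% in KO, with overlap.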
